A study of Homo sapiens with 12 samples.

Results

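Iron-sulfur clusters are small groups of iron and sulfide that serve as cofactors in respiration, iron sensing, protein synthesis and DNA repair. In mitochondria, iron enters through the mitoferrin carriers, a desulfurase supplies sulfur, a scaffold protein holds the growing cluster, and a chaperone system with a glutaredoxin passes it on. A separate cytosolic machinery, which depends on the mitochondrial one, builds clusters for cytosolic and nuclear proteins. The 8 genes described here were taken by symbol from the gene-level table of 36459 symbols. They are the carriers SLC25A37 (mitoferrin-1) and SLC25A28 (mitoferrin-2), the mitochondrial assembly genes NFS1 (cysteine desulfurase), ISCU (scaffold), HSCB (co-chaperone) and GLRX5 (glutaredoxin), and the cytosolic assembly genes CIAO1 (subunit of the targeting complex that hands clusters to client proteins) and NUBP1 (part of the cytosolic scaffold). All 8 were among the 14209 genes left after low counts were removed.

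RNA was sequenced from HEK293 cells, a line derived from human embryonic kidney, in 4 groups of 3 libraries. The cells received vehicle, oleic acid (a monounsaturated fatty acid), FAC (ferric ammonium citrate, given to load the cells with iron and induce ferroptosis, an iron-dependent form of cell death) or oleic acid and FAC together, and the study asked how the fatty acid alters the response to the salt. The sources used here give no doses or times. Replicates are numbered, but nothing says that they were separate cultures, so the p-values measure the spread between these libraries, which may be technical.

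Library totals ran from 14098216 to 18717397 counts. Replicate 3 with oleic acid and replicate 3 with both agents stood apart from the rest of their groups: short transcripts were relatively abundant in them. Across genes, log2 transcript length correlated at -0.52 and -0.39 with the library's deviation from the mean of its own group. The other libraries gave -0.23 to 0.36, and centring on the group mean ties the values within a group together. Mitochondrially encoded mRNA made up 12.1% of counts in replicate 3 with both agents and 3.33% to 7.50% in the other 11. The neurofilament gene NEFL, typical of this line, stood at 83.9 to 120 CPM (counts relative to the effective library size), and PAX2, a renal developmental gene, at 4.30 to 7.15 CPM. Erythroid genes, from the lineage in which SLC25A37 is abundant, summed to 0.421 to 2.08 CPM in a library, with HBB, HBG2 and ALAS2 at 0 counts in all 12. PTPRC, PECAM1 and ALB (blood, endothelium, liver) reached at most 0.842 CPM, COL1A1 (fibroblasts) 9.41 to 17.9 and EPCAM (epithelium) 5.73 to 12.4. TFRC, the transferrin receptor whose mRNA is destabilised when cells are rich in iron, served as the check of iron loading. It fell with FAC from 122 ± 10.6 to 19.5 ± 2.62 CPM (mean ± SD, n = 3), and with oleic acid present from 103 ± 39.6 to 14.6 ± 1.57 CPM. These are log2 fold changes of -2.64 (SE 0.25, adjusted p = 0.000232) and -2.83 (SE 0.25, adjusted p = 0.000215).

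None of the 8 genes changed in any of the 6 comparisons made with edgeR's quasi-likelihood test, at a Benjamini-Hochberg adjusted p under 0.05 over all 14209 genes. The share of all genes called was 1.19% for FAC against vehicle, 2.21% for oleic acid + FAC against oleic acid, and 8.76% for FAC averaged over both fatty acid states (the mean of those 2 effects, on the same 12 libraries, hence no independent support for either). It was 0% for oleic acid against vehicle, for oleic acid + FAC against FAC and for the interaction, in which 118, 576 and 116 genes had an unadjusted p under 0.05. Against those shares, 0 of 8 is not a result that sets the members apart from other genes. At an unadjusted p under 0.05, 1 member (CIAO1) was found in each of oleic acid + FAC against oleic acid and FAC averaged, where 16.1% and 23.5% of all genes reached that level, and 0 in the other 4 comparisons. DESeq2 and limma-voom also called 0 of 8 in each comparison. In the order FAC against vehicle, oleic acid + FAC against oleic acid and FAC averaged, the share of all genes called was 3.65%, 5.97% and 12.5% with DESeq2 and 1.21%, 1.98% and 8.89% with limma-voom. Same-numbered libraries of the oleic acid and the oleic acid + FAC groups deviated together, though centring on the group mean ties their values. With the replicate number as a block, 5.21% of all genes and 0 of 8 members were called for oleic acid + FAC against oleic acid.

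The 95% intervals show how precisely these libraries gave each member's fold change. They hold for 1 gene in 1 comparison at a time and rest on the spread between these libraries. In every comparison, all 8 intervals lay within 1 log2 unit of 0. They ran from -0.57 to 0.56 over the members for FAC against vehicle, from -0.62 to 0.67 for oleic acid + FAC against oleic acid, and from -0.64 to 0.81 for oleic acid + FAC against FAC. The interval of TFRC for FAC against vehicle, -3.18 to -2.10, lay outside them. In these bulk libraries, fewer expressing cells and less RNA per cell cannot be told apart.

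**Figure D1:**
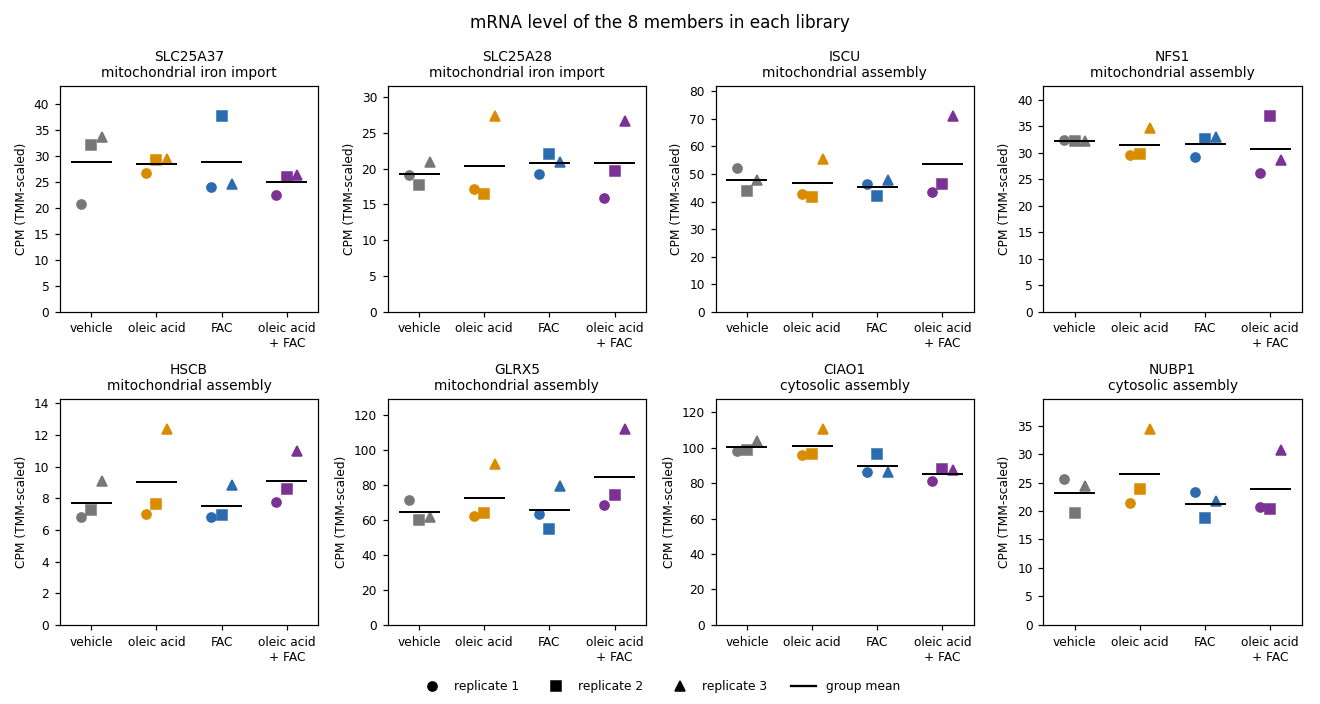
Level of each member in each of the 12 libraries, as CPM scaled by the trimmed mean of M values; symbols mark the replicate number, lines the group means. GLRX5 and ISCU are highest in replicate 3 with both agents (112 and 71.2 CPM). Within each fatty acid state the CIAO1 libraries with FAC lie below those without it, as for 12.4% (no oleic acid) and 10.3% (oleic acid) of all genes. CIAO1 was not called in either comparison.

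The carriers come first. SLC25A37 moves iron across the inner mitochondrial membrane and is best known for its role in red cell precursors. Its level was 20.6, 32.01 and 33.5 CPM with vehicle, 26.7, 29.1 and 29.4 with oleic acid, 24.0, 37.7 and 24.6 with FAC, and 22.5, 25.9 and 26.3 with both. Vehicle and FAC libraries overlapped widely, whereas all 3 libraries with both agents lay below the 3 with oleic acid alone. Of all genes, 10.3% separated that way in this comparison. The log2 fold change of SLC25A37 was 0.0035 (SE 0.20, adjusted p = 0.999) for FAC against vehicle and -0.19 (SE 0.20, adjusted p = 0.676) for oleic acid + FAC against oleic acid. The difference between these 2 effects, the interaction, was -0.19 (interval -0.80 to 0.41, adjusted p above 0.999).

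SLC25A28 is the carrier found in most tissues. Its level was 19.1, 17.8 and 21.0 CPM with vehicle, 17.1, 16.4 and 27.4 with oleic acid, 19.2, 22.1 and 20.9 with FAC, and 15.9, 19.7 and 26.6 with both. The high values in the oleic acid groups are the libraries that stand apart, and all pairs of groups overlapped. Its log2 fold change for FAC averaged over both states was 0.07 (interval -0.25 to 0.39, adjusted p = 0.821).

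NFS1, which takes sulfur from cysteine, had the narrowest intervals of the mitochondrial members. It stood at 32.4, 32.1 and 32.2 CPM with vehicle, 29.5, 29.8 and 34.7 with oleic acid, 29.1, 32.6 and 33.0 with FAC, and 26.2, 37.0 and 28.7 with both. The groups overlapped in every comparison. The FAC effect averaged over both states was -0.03 (interval -0.23 to 0.17, adjusted p = 0.886).

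ISCU, the scaffold on which the first cluster forms, stood at 52.2, 43.9 and 47.7 CPM with vehicle, 42.7, 41.7 and 55.4 with oleic acid, 46.3, 42.0 and 47.8 with FAC, and 43.5, 46.5 and 71.2 with both. One library, replicate 3 with both agents, exceeded all others. For oleic acid + FAC against FAC the log2 fold change was 0.24 (SE 0.18, adjusted p = 0.707). Once the 2 libraries that stand apart were left out, with FAC replicate 3 kept, it was -0.02. With the trend on transcript length removed from every library it was 0.04.

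GLRX5, which takes the cluster from the scaffold and its chaperones to later steps, had the largest difference among the members for the same comparison. Its level was 71.1, 60.02 and 61.5 CPM with vehicle, 62.5, 64.0 and 91.7 with oleic acid, 63.2, 54.9 and 79.4 with FAC, and 68.2, 74.0 and 112 with both. Replicate 3 was the highest of its group with oleic acid, with FAC and with both. Across replicate numbers, FAC and oleic acid + FAC overlapped. By number, taken as pairs in this comparison, the levels with both and with FAC were 68.2 and 63.2, 74.0 and 54.9, and 112 and 79.4 CPM. The log2 fold change of oleic acid + FAC against FAC was 0.36 (interval -0.08 to 0.81, adjusted p = 0.707). Without the 2 libraries that stand apart it was 0.10 (adjusted p = 0.995). That fit kept FAC replicate 3, the highest library with FAC, without its same-numbered partner. With the length trend removed the fold change was 0.22 (adjusted p = 0.866).

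HSCB, the co-chaperone that docks the loaded scaffold to the mitochondrial HSP70, had the fewest counts of the 8. It stood at 6.79, 7.23 and 9.09 CPM with vehicle, 7.01, 7.68 and 12.4 with oleic acid, 6.83, 6.95 and 8.83 with FAC, and 7.80, 8.57 and 11.005 with both. Replicate 3 was the highest in all 4 groups. Its log2 fold change was 0.22 (interval -0.28 to 0.72) for oleic acid against vehicle and -0.08 without the 2 libraries that stand apart, with adjusted p above 0.999 both times. The fit without those libraries kept vehicle replicate 3.

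Of the cytosolic genes, NUBP1 encodes one of the paired ATPases on which the cytosolic cluster is first built. Its level was 25.6, 19.6 and 24.4 CPM with vehicle, 21.4, 23.8 and 34.4 with oleic acid, 23.3, 18.7 and 21.7 with FAC, and 20.7, 20.3 and 30.7 with both. FAC and non-FAC libraries overlapped in both fatty acid states. The log2 fold change was -0.13 (SE 0.20, adjusted p = 0.903) for FAC against vehicle and -0.15 (SE 0.20, adjusted p = 0.757) for oleic acid + FAC against oleic acid.

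CIAO1, which belongs to the complex that inserts clusters into cytosolic and nuclear clients, had the lowest fold change of the 8 in all 3 FAC comparisons. Its level was 98.1, 98.6 and 104 CPM with vehicle, 95.9, 96.5 and 111 with oleic acid, 86.5, 96.8 and 86.6 with FAC, and 81.2, 87.9 and 87.3 with both. All FAC libraries were below all vehicle libraries, and all libraries with both agents were below all oleic acid libraries. That separation downward was met by 12.4% and 10.3% of all genes in the 2 comparisons, and over 6 libraries against 6 the values of CIAO1 overlapped.

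The log2 fold change of CIAO1 was -0.16 (SE 0.10, adjusted p = 0.629) for FAC against vehicle and -0.24 (SE 0.10, adjusted p = 0.255) for oleic acid + FAC against oleic acid. Averaged over both states it was -0.20 (interval -0.35 to -0.05), a ratio of 0.871, with an unadjusted p of 0.0147 and an adjusted p of 0.105. Over the 19 alternative analyses of the averaged effect, CIAO1 stayed between -0.23 and -0.16 and its adjusted p between 0.0582 and 0.262. The interval left out 0, and the change did not pass the test over all genes. Oleic acid + FAC against FAC gave -0.07 (interval -0.29 to 0.14).

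**Figure D2:**
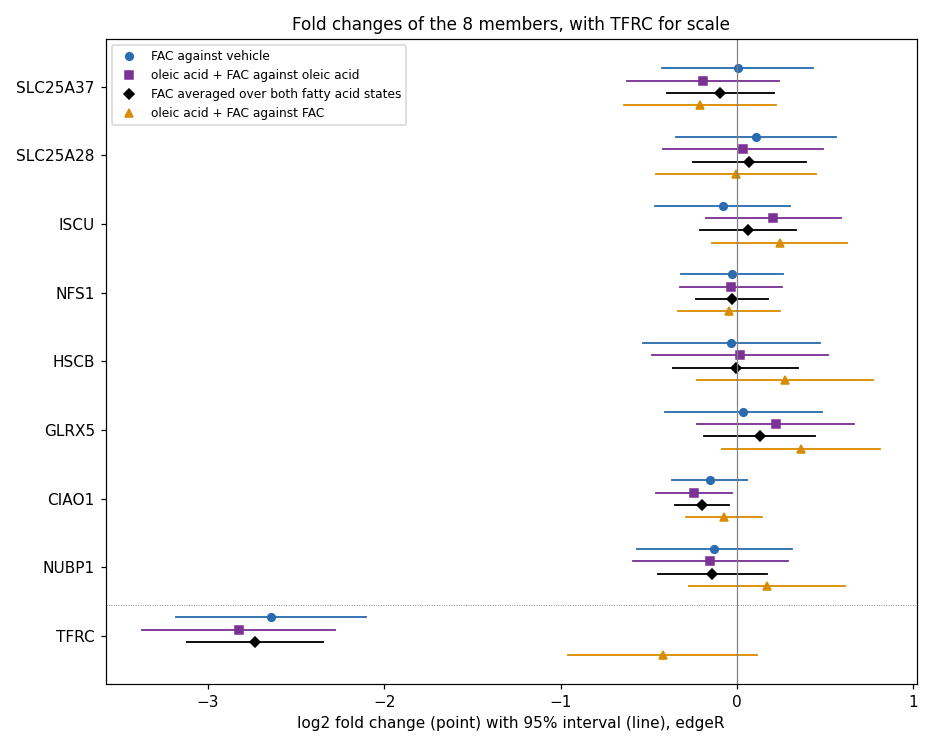
Log2 fold changes (points) of the 8 members and TFRC with 95% intervals (lines) in 4 comparisons, from edgeR. The interval of CIAO1 leaves out 0 for oleic acid + FAC against oleic acid and for FAC averaged, the other members' intervals all include 0, and TFRC lies near -2.64 to -2.83 in the 3 FAC comparisons.

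The mitochondrial and cytosolic members were set against each other within each library, as the mean log2 CPM of the 6 mitochondrial genes minus that of the 2 cytosolic genes. This difference was -0.80 ± 0.10 with vehicle, -0.84 ± 0.03 with oleic acid, -0.67 ± 0.12 with FAC and -0.61 ± 0.10 with both (mean ± SD, n = 3). By library it was -0.92, -0.71 and -0.78 with vehicle, -0.83, -0.88 and -0.82 with oleic acid, -0.80, -0.62 and -0.58 with FAC, and -0.73, -0.55 and -0.56 with both. FAC and vehicle overlapped, and the 3 libraries with both agents lay above the 3 with oleic acid. For oleic acid + FAC against oleic acid, where numbers were taken as pairs, the value was higher with FAC by 0.11, 0.33 and 0.26. For FAC against vehicle, where libraries share only a number, it was higher by 0.11, 0.10 and 0.20. There other matchings turn the sign, as FAC replicate 1 lay below vehicle replicates 2 and 3. Other sets of genes were not scored in this way. The mean shift with FAC was 0.18 log2 units, against a pooled SD within groups of 0.09. Both cytosolic members had negative fold changes in each FAC comparison (median -0.17 for FAC averaged). For FAC averaged the 6 mitochondrial members had 3 positive and 3 negative ones (median 0.03, against 0.0045 over all genes), and for oleic acid + FAC against oleic acid 4 positive and 2 negative ones. The score is a description and carries no p. It rests on 2 cytosolic genes, and it ranged from 0.16 to 0.22 over 15 alternatives.

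**Figure D3:**
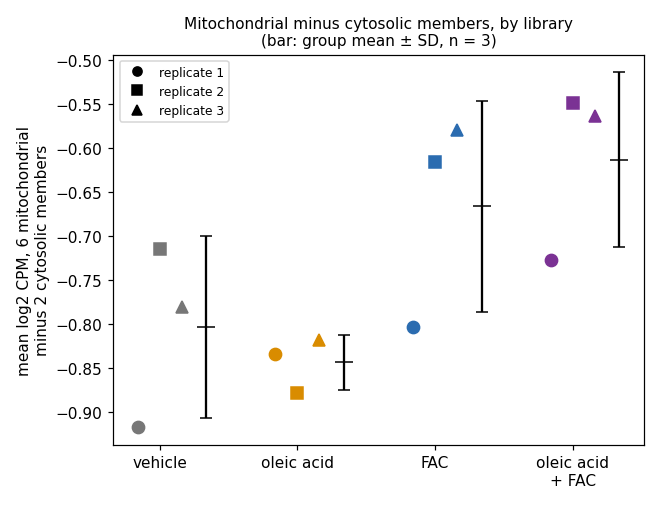
Mean log2 CPM of the 6 mitochondrial members minus that of CIAO1 and NUBP1 in each library (symbols, by replicate number), with group mean ± SD (bars, n = 3). The values with FAC average 0.18 higher than those without, and the vehicle and FAC libraries overlap.

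CPM does not correct for transcript length, so levels were compared between genes as TPM (counts divided by transcript length and scaled to a common total), from the transcript counts and annotated lengths, in the vehicle libraries. CIAO1 (82.1 ± 1.32 TPM), ISCU (80.6 ± 5.77) and GLRX5 (73.0 ± 4.62) were the most abundant. NUBP1 (35.6 ± 4.27), SLC25A28 (34.9 ± 3.46) and NFS1 (33.7 ± 1.78) formed a middle tier, and SLC25A37 (14.4 ± 4.19) and HSCB (13.0 ± 3.04) a low one. Within each tier neighbours overlapped in their libraries, whereas the tiers did not overlap. The carrier SLC25A28 thus exceeded SLC25A37 per length in this line, although SLC25A37 had more reads. Over all 12 libraries ISCU ranked at the 86.2 percentile of tested genes by TPM and HSCB at the 46.9 percentile.

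At the transcript level, 65 transcripts of the 8 genes were in the table and 34 passed the filter. None changed for FAC against vehicle, oleic acid + FAC against oleic acid, FAC averaged or oleic acid + FAC against FAC, with 0.00777%, 0.0117%, 0.299% and 0.00194% of all tested transcripts called by edgeR. In those 4 comparisons 1, 1, 1 and 3 of the 34 had an unadjusted p under 0.05, as 4.47%, 6.14%, 8.37% and 3.97% of all tested transcripts did, and limma-voom also called 0. GLRX5 was carried almost wholly by GLRX5-201 (98.8% of its counts) and ISCU mostly by ISCU-201 (79.2%), with 11.6% on ISCU-202. CIAO1 was divided between CIAO1-201, annotated as a retained intron in GENCODE 29 (55.2%), and the protein-coding CIAO1-203 (43.8%). For FAC averaged, CIAO1-201 gave -0.17 (SE 0.08, adjusted p = 0.637) and CIAO1-203 gave -0.24 (SE 0.08, adjusted p = 0.455). The share of CIAO1-203 was 45.4% ± 3.31 with vehicle and 42.5% ± 4.00 with FAC, a difference within 1 SD. NFS1-204 held 65.4% of NFS1, NUBP1-201 85.2% of NUBP1 and HSCB-201 68.1% of HSCB, whereas the leading transcripts of SLC25A28 and SLC25A37 held 59.1% and 56.2%.

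The rest of the pathway was read from 5 lists of 50 genes in all. For FAC averaged over both states, where 5.48% of all genes were called lower and 3.27% higher, the cytosolic assembly list held the lowest genes: 2 of its other 9 genes fell, CIAO3 and NDOR1, and 0 rose. The other 14 mitochondrial assembly genes, the 2 export genes and the 11 mitochondrial client genes had 0 calls by edgeR, with 3, 0 and 0 at an unadjusted p under 0.05 (23.5% of all genes). DESeq2, which called 12.5% of all genes, called 3 of the 14 and 0 in the other 2 lists, and limma-voom called 0 in all 3 lists. Of 14 cytosolic and nuclear clients, ERCC2 and RTEL1 fell and CDKAL1 rose. For oleic acid + FAC against oleic acid CIAO3 fell and CDKAL1 rose, also in limma-voom, and DESeq2 called NDOR1 and ERCC2 as well. For FAC against vehicle edgeR and limma-voom called 0 genes in all 5 lists and DESeq2 called CIAO3; at an unadjusted p under 0.05 in edgeR there were 1 mitochondrial assembly gene, 1 cytosolic assembly gene and 3 cytosolic and nuclear clients, against 12.1% of all genes. The list medians were -0.0026 for cytosolic assembly, 0.08 for mitochondrial assembly, 0.07 for export, 0.12 for mitochondrial clients and 0.0085 for cytosolic and nuclear clients, against 0.0045 for all genes and -0.02 for the 8 members.

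**Figure D4:**
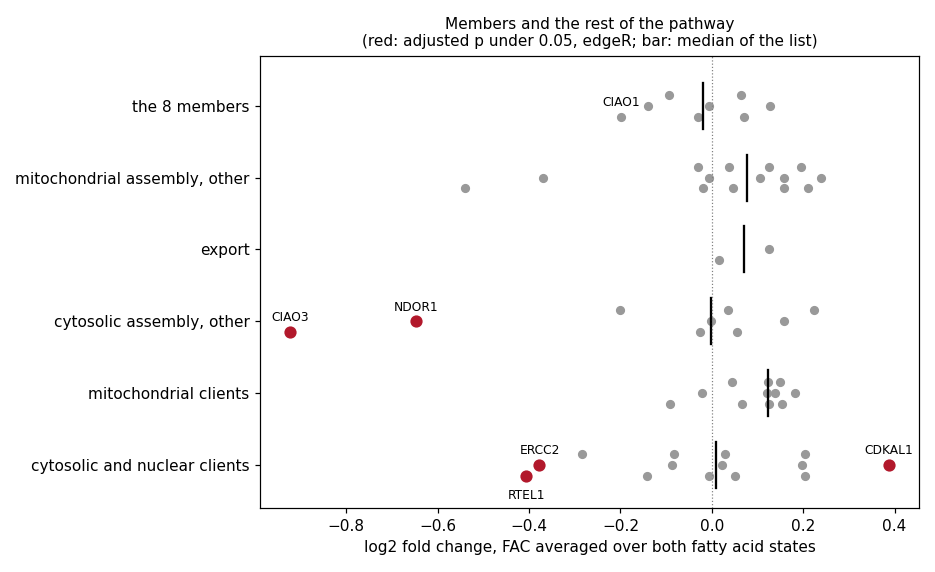
Log2 fold change of each gene for FAC averaged over both fatty acid states, in the 8 members and 5 lists of the pathway; red points passed an adjusted p under 0.05 in edgeR and bars mark list medians. CIAO3 and NDOR1 lie lowest at -0.92 and -0.65, while the 8 members lie between -0.20 and 0.13.

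CIAO3 (also known as NARFL) bridges the cytosolic scaffold and the targeting complex that contains CIAO1. Its level was 12.1, 13.4 and 13.5 CPM with vehicle, 11.1, 11.9 and 16.7 with oleic acid, 5.98, 9.002 and 5.85 with FAC, and 5.35, 8.002 and 7.17 with both. All 6 FAC libraries were below all 6 others, which held for 4.04% of all genes. CIAO3 fell by 0.92 on the log2 scale for FAC averaged (SE 0.15, adjusted p = 0.00298) and passed in all 19 alternatives. It also fell for oleic acid + FAC against oleic acid (-0.95, SE 0.22, adjusted p = 0.0416), a call lost in each leave-one-out fit except the one without FAC replicate 2 (adjusted p 0.0557 to 0.121), without the 2 libraries that stand apart (adjusted p = 0.104) and with only the groups compared (adjusted p = 0.197). For FAC against vehicle it gave -0.90 (SE 0.22, adjusted p = 0.0686) and passed in 7 of 20 alternatives. The interaction was -0.05 (adjusted p above 0.999). CIAO3 shares 1744 exonic bases with HAGHL on the opposite strand, and HAGHL, looked up after that overlap was seen, gave -0.10 (SE 0.20, adjusted p = 0.813) for FAC averaged.

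NDOR1, the reductase that feeds electrons to the cytosolic machinery, stood at 22.7, 30.3 and 31.5 CPM with vehicle, 27.2, 26.5 and 20.7 with oleic acid, 18.9, 27.5 and 16.1 with FAC, and 16.4, 14.4 and 10.1 with both. FAC replicate 2 overlapped the libraries without FAC. NDOR1 fell by 0.65 for FAC averaged (SE 0.16, adjusted p = 0.0224). That call was lost without oleic acid replicate 1 or 2, FAC replicate 1 or 3, or vehicle replicate 2 or 3 (adjusted p 0.0542 to 0.0663). For oleic acid + FAC against oleic acid NDOR1 gave -0.86 (SE 0.22, adjusted p = 0.0704), and with the replicate block -0.87 (adjusted p = 0.0283). For FAC against vehicle CIAO3 was the lowest gene of the list, and CIAO2B, a partner of CIAO1 in the targeting complex, the highest at 0.15 (SE 0.23, adjusted p = 0.898).

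**Figure D5:**
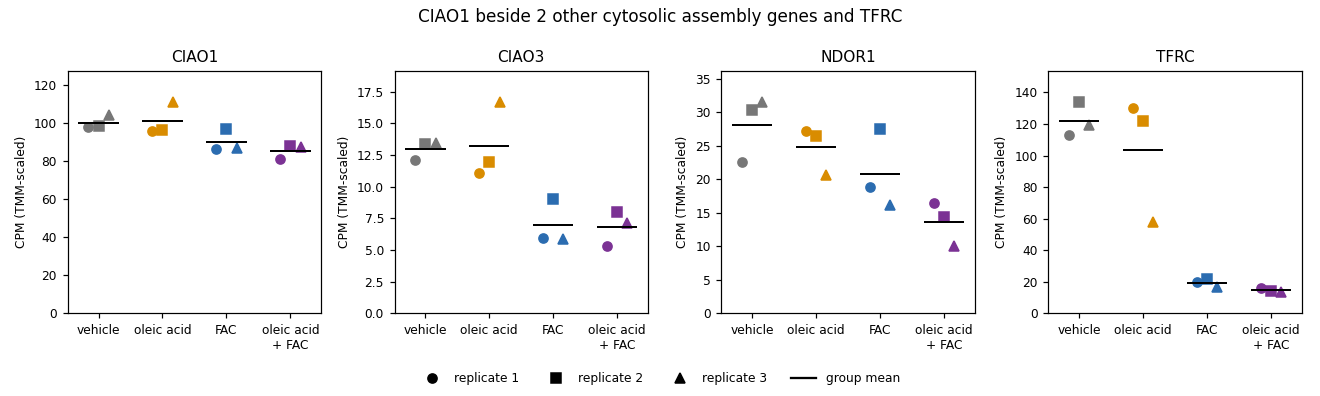
CPM by library of CIAO1, CIAO3, NDOR1 and TFRC (symbols, by replicate number; lines, group means). Group means with vehicle and with FAC are 13.0 and 6.94 CPM for CIAO3, 122 and 19.5 for TFRC, and 100.2 and 90.0 for CIAO1.

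Among clients, ERCC2, a helicase of transcription and nucleotide excision repair that carries a cluster, stood at 73.1 ± 4.49 CPM with vehicle, 70.6 ± 3.97 with oleic acid, 57.2 ± 3.66 with FAC and 53.6 ± 8.73 with both. Its averaged FAC effect was -0.38 (SE 0.09, adjusted p = 0.0181), lost without oleic acid replicate 1, vehicle replicate 2 or 3, or FAC replicate 3 (adjusted p 0.0505 to 0.0562). RTEL1, a helicase that protects telomeres, gave -0.41 for FAC averaged (SE 0.10, adjusted p = 0.0248), lost in 7 of 12 leave-one-out fits (adjusted p 0.0537 to 0.0741), those without any 1 FAC replicate, vehicle replicate 2 or 3, oleic acid replicate 2 or oleic acid + FAC replicate 1. CDKAL1, a tRNA-modifying enzyme with clusters, stood at 21.1 ± 1.57 CPM with vehicle, 22.1 ± 1.35 with oleic acid, 25.6 ± 1.47 with FAC and 31.2 ± 1.205 with both. It rose by 0.39 for FAC averaged (SE 0.08, adjusted p = 0.00734), a call kept in all 19 alternatives, and by 0.50 for oleic acid + FAC against oleic acid (SE 0.11, adjusted p = 0.0323). The latter call was lost without FAC replicate 1 or 3, vehicle replicate 3, oleic acid replicate 1 or 2, or any 1 oleic acid + FAC replicate (adjusted p 0.0507 to 0.124), with no filter on low counts (adjusted p = 0.0847) and with only the groups compared (adjusted p = 0.206). For FAC against vehicle RTEL1 was the lowest client at -0.43 (adjusted p = 0.198) and CDKAL1 the highest at 0.28 (adjusted p = 0.297). Each of these 3 genes separated the 6 FAC libraries from the other 6, as 4.04% of all genes did downward and 2.8% upward. RTEL1 shares 4522 exonic bases with the readthrough gene RTEL1-TNFRSF6B and ERCC2 shares 535 with KLC3, so their counts are less certain.

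Among the mitochondrial assembly genes, GRPEL1, an exchange factor of the mitochondrial HSP70, had the highest value for FAC against vehicle, at 0.17 (SE 0.14, adjusted p = 0.747). IBA57, a late-acting mitochondrial factor named here after its values were seen, gave -0.54 (SE 0.16, adjusted p = 0.0547) for FAC averaged, and passed in 8 of 19 alternatives, 3 of them leave-one-out fits (lowest adjusted p 0.00433, highest 0.132). NUBPL of the same list, also named after its values were seen, was not called by edgeR for FAC averaged. It stood at 21.8 ± 0.716 CPM with vehicle, 20.4 ± 0.744 with oleic acid, 24.2 ± 1.76 with FAC and 24.7 ± 0.207 with both. All its FAC libraries lay above all libraries without FAC, which held for 2.8% of all genes. The sulfhydryl oxidase GFER gave 0.07 (adjusted p = 0.916) for FAC against vehicle. FECH, which inserts iron into heme and carries a cluster, was the lowest of the mitochondrial clients in that comparison at -0.15 (adjusted p = 0.720).

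Each member's closest match by level was sought among 10229 genes (mean log2 CPM at or above 3), as the highest Pearson r over the 12 libraries, which share depth, composition and treatment. The match of CIAO1 was CIAO3 (r = 0.95), so the member with the lowest fold change with FAC and the list gene that fell most varied together across libraries. The matches of GLRX5 (TIMM8B, r = 0.99), NUBP1 (AIMP2, r = 0.98), ISCU (BBIP1, r = 0.97) and HSCB (TOP1MT, r = 0.96) belong to members that, like SLC25A28, are high in the libraries that stand apart. SLC25A37 was most like PILRB (r = 0.94), SLC25A28 most like SAFB2 (r = 0.93) and NFS1 most like WASHC1 (r = 0.86). Among the members, ISCU and GLRX5 were closest to each other (r = 0.90), while CIAO1 reached at most 0.55 with any other member, SLC25A37.

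The sequences before a RefSeq start of CIAO1 and CIAO3 are shown because this pair varied together. Beside them are those of ISCU and SLC25A28, the scaffold and the broadly expressed carrier, whose closest matches were other genes. All are RefSeq windows on GRCh38.p14, limited to bases that meet no annotated exon, 5′ to 3′ on the gene's strand. Capitals mark matches to GGGCGG (the GC box bound by Sp1 family factors), CCAAT (the box bound by NF-Y), CCGGAAG (an ETS site), TGACNNNGC (the core of the antioxidant response element) and TGCNCNC (the core of the metal response element), searched on both strands. The windows lie at chr2:96266012-96266131 (plus strand), chr16:741016-741135 (minus), chr12:108562462-108562581 (plus) and chr10:99620440-99620532 (minus).
CIAO1: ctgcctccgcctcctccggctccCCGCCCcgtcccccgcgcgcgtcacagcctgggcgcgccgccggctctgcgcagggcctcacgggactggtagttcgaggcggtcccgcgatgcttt
CIAO3: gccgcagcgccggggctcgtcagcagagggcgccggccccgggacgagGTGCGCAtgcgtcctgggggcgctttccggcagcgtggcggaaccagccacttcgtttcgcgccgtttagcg
ISCU: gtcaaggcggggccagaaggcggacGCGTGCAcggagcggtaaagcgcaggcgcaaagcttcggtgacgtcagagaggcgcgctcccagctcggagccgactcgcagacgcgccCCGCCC
SLC25A28: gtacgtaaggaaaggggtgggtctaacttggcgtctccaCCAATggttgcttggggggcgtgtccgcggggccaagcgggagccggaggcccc

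Over the 250 bases before the RefSeq start, CIAO1 held 1 GC box, 1 ETS match and 1 metal response core, and CIAO3 held 1 GC box and 4 metal response cores. ISCU held 3 GC boxes, 1 antioxidant core and 1 metal response core, and SLC25A28 held 1 GC box and 3 CCAAT boxes. Among 35116 RefSeq windows of this length, 42.6% held a GC box, 32% a CCAAT box, 8.52% the ETS match, 10.9% the antioxidant core and 49.1% the metal response core. The GC box and the metal response core are common in promoters, and CIAO1 and CIAO3 share no other match. The motifs and genes were chosen after values were seen, and a match is a string of letters, not a measured site.

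On GRCh38, GENCODE 29 places SLC25A37 at chr8:23528805-23575463, SLC25A28 at chr10:99610522-99620609, ISCU at chr12:108562582-108569384, NFS1 at chr20:35668055-35699359, HSCB at chr22:28742031-28757515, GLRX5 at chr14:95533503-95544724, CIAO1 at chr2:96266132-96273349 and NUBP1 at chr16:10743786-10769351. All 8 are protein-coding, and counts cover their annotated exons. The sources used here do not give the strand setting of the counting, so reads of a gene and of an overlapping antisense gene cannot be told apart. NUBP1 shares 706 exonic bases with TVP23A, HSCB 301 with CHEK2, GLRX5 391 with SNHG10 and 127 with SCARNA13, and NFS1 88 with ROMO1 on the opposite strand. NFS1 also shares 289 bases with AL109827.1 on its own strand. SLC25A37, SLC25A28, ISCU and CIAO1 share none with another annotated gene.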

How the data were processed

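The authors deposited estimated counts from kallisto 0.46.1 per gene symbol and per transcript, per the labels; bcl2fastq 2.19, sleuth 0.30.0 and the build GRCh38.p12 (hg38) are named in the submitters' processing notes. RNA was poly-A selected, per the labels' protocols. The values were already whole, so rounding changed none. edgeR 4.0.16 (R 4.3.3) kept 14209 genes and 51464 transcripts with filterByExpr, scaled libraries by TMM and fitted all 12 libraries together, with 1 mean per group and two-sided quasi-likelihood F tests adjusted over all features. Intervals are 95%. Log2 levels add 0.5 CPM. A count of 0 allows 3 counts, 0.158 to 0.224 CPM in a library, for counting error only. Annotated lengths matched 89.9% of transcripts and 97.5% of counts, by identifiers without version. Replicate pairs differed by more than counting noise (chi-square per degree of freedom 8.54 to 130). The labels number the replicates. Deviations of same-numbered libraries from their group means correlated over 0.1 in 3 of 3 pairs for oleic acid + FAC against oleic acid (r 0.30 to 0.61). The same held for oleic acid + FAC against FAC (0.22 to 0.34). Both comparisons were taken as paired. Not every pair of the comparisons with vehicle reached 0.1. Deviations cancel out within a group, so the 3 pairs of a comparison are not independent. The r of 0.61 was between replicate 3 of both oleic acid groups, the libraries that stand apart. Tests were also run on simulated counts, drawn independently for each library. These held no length trend and no pairing by replicate number, so that check does not cover either feature. Alternatives were DESeq2 1.42.0, limma-voom (limma 3.58.1), other filters, scaling and library sets. The members and lists were chosen with earlier results of these data known. Named were all 8 members, TFRC, list genes that passed, and each list's extremes for FAC against vehicle; some of these are not reported here.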

Additional observations from a re-analysis of the deposited data

How the results depend on the processing

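The count of members changed was 0 of 8 in each of the 6 comparisons under every alternative run (19 or 20 each), and 0 of 34 for their transcripts in 4 comparisons under 15 alternatives each, the replicate block included. Of 944 member fold changes under alternatives, 96 had the other sign, none of them called in either analysis, and 28 moved by over 1 SE; the largest size of a member's main fold change among those that turned was 0.24. With the replicate number as a block, 0 members changed and CIAO1 gave an adjusted p of 0.0582 for FAC averaged. Over all groups, same-numbered libraries had r over 0.1 in 13 of 18 pairs (lowest -0.07), and 10 of 12 libraries correlated best with their own number. Centring ties the libraries of a group, so these are not counts of independent pairs. Between vehicle and FAC 2 of 3 pairs had r over 0.1, and between vehicle and oleic acid 1 of 3, so there the libraries share only a number. In the 2 comparisons where the numbers were taken as paired, the block changed the call of NDOR1 for oleic acid + FAC against oleic acid and of no member. Over all genes, calls for FAC against vehicle went from 169 to 431 with the block, 505 with DESeq2, 351 with only the groups compared, 403 with the length trend removed and 672 without replicate 3 of both oleic acid groups, and ran from 27 to 299 over leave-one-out fits. For oleic acid + FAC against oleic acid they went from 314 to 740, 775, 19, 677 and 356 in that order, and from 55 to 449. For FAC averaged they went from 1244 to 2211 with the block, 1835 with DESeq2, 2161 with the length trend removed and 2143 without the same 2 libraries, and from 738 to 1810. The cause was not tested. Oleic acid + FAC against FAC had 1 gene by DESeq2. The mitochondrial minus cytosolic shift ran from 0.156 to 0.218 over leave-one-out values, which were added after seeing the data. Precision is limited by 3 libraries a group, and most for HSCB, the member with the fewest counts.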
